A study of Mus musculus with 8 samples.

Results

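MHC class II molecules present peptides from endosomes to CD4+ T cells. An alpha and a beta chain are assembled in the endoplasmic reticulum around the invariant chain Cd74, which blocks the peptide groove and steers the complex to endosomes. There cathepsins digest Cd74, the chaperone H2-DM exchanges the remaining Cd74 fragment for other peptides, and H2-DO holds H2-DM back. Ciita is the co-activator without which these genes are little transcribed. B cells, dendritic cells and activated macrophages are the cells best known for using the whole set, and interferon gamma can switch it on in many other cells. The 10 genes described here were taken by gene symbol from a table of read counts with 23284 symbols: Cd74, the chain genes H2-Aa, H2-Ab1 and H2-Eb1, the H2-DM genes H2-DMa, H2-DMb1 and H2-DMb2, the H2-DO genes H2-Oa and H2-Ob, and Ciita. All 10 had a row, and all 10 passed the filter on low counts that left 13274 genes for testing.

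The source was the pancreas of mice carrying Dclk1-CreERT;tdtomato on a CBA x C57BL/6J background, in which a Cre recombinase driven from Dclk1 and switched on by tamoxifen marks cells with a red fluorescent protein. Both groups carry the same alleles and differ in the label Dclk1 positive (4 libraries, numbered 1 to 4) or Dclk1 negative (4 libraries, numbered 5 to 8). Age, sex, tamoxifen timing, the sorting gate and the number of animals per library are not stated in the labels. Each p-value therefore reflects only how much these libraries vary, which may be technical. Levels are TMM-scaled CPM, that is, the counts of a gene as parts of its library's scaled total, and 1 count was worth 0.102 to 0.193 CPM.

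Total counts ran from 6353841 to 10282911 per library, of which 8.90% to 34.2% belonged to Rn45s, a ribosomal RNA gene. Dclk1 was at 131, 221, 53.3 and 17.9 CPM in Dclk1+ libraries 1 to 4 and at 2.67 to 15.04 CPM in the Dclk1- libraries. Dclk1+ library 4 therefore lay close to the Dclk1- libraries in the gene that names the groups. It also stood apart in the class II genes and in macrophage markers, and the fold changes of the 10 genes and the counts of most companion lists are given with and without it. Singling it out thus rested in part on the levels of these same genes. Because it was the highest Dclk1+ library for each of the 10, leaving it out makes their fold changes more negative. Adjusted p-values without library 4 are therefore descriptive only. With all 8 libraries 1.02% of all tested genes were called lower and 2.47% higher, and without library 4 it was 6.23% and 12.1%. Calls in the companion lists below are to be read beside these shares. The duct and epithelial markers Sox9, Krt8, Spp1 and Cldn2 were higher in every Dclk1+ than in every Dclk1- library, whereas the leukocyte gene Ptprc was at 841 CPM or more in every Dclk1- library. The labels give pancreas as the source of both groups, and the Dclk1- libraries held leukocyte RNA in quantity and little of the duct markers (41.6 to 120 CPM summed over 10 genes). In bulk RNA, fewer cells of a type and less RNA per cell cannot be told apart.

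Class II genes of the H2 complex carry a shared promoter module, in which an X box bound by the RFX complex and a Y box bound by NF-Y sit at a fixed distance and together recruit Ciita. Promoter sequences from RefSeq (build GRCm38.p6) were at hand for 7 of the 10 genes, namely H2-Aa, H2-Eb1, H2-DMa, H2-DMb1, H2-DMb2, H2-Oa and H2-Ob. The 250 bases before each start were searched on both strands for GNAAC, a core of the X box, for ATGATG, which overlaps the box that follows it, and for ATTGG, the Y box read as the reverse complement of CCAAT. These letters were chosen after the sequences had been looked at. GNAAC followed by ATTGG, with 25 to 45 bases from the first base of one to the first base of the other, was found in H2-Aa, H2-Eb1, H2-DMb1, H2-Oa and H2-Ob. Of 32851 promoters of the same length, 2.84% held that pair. The following 60-base windows are from genes whose levels are compared below, 5′ to 3′ on the gene's strand, with matches in capitals. H2-DMb2 did not hold the pair and is shown for its ATGATG and ATTGG matches.
H2-Aa, chr17:34287860-34287919, minus strand: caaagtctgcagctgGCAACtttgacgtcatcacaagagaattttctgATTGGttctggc
H2-Eb1, chr17:34305760-34305819, plus strand: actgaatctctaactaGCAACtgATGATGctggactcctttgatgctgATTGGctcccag
H2-DMb1, chr17:34153082-34153141, plus strand: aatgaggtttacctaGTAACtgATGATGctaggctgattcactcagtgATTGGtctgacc
H2-DMb2, chr17:34145111-34145170, plus strand: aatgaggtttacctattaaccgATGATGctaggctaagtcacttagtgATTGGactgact
H2-Oa, chr17:34092288-34092347, plus strand: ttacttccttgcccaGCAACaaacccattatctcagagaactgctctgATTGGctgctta
H2-Ob, chr17:34238800-34238859, plus strand: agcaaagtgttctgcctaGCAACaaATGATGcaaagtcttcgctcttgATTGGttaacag

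In these windows ATTGG began 43 to 90 bases before the annotated start. The distance from GNAAC to ATTGG was 33 bases in H2-Aa, H2-DMb1 and H2-Oa, 32 in H2-Eb1 and 30 in H2-Ob. H2-DMb2, the close copy of H2-DMb1, lacked the GNAAC match at the place where H2-DMb1 has it and kept both other motifs. The order ATGATG followed by ATTGG 15 to 45 bases later occurred in H2-Eb1, H2-DMb1, H2-DMb2 and H2-Ob and in 0.301% of all promoters. The 2 starts listed for H2-DMa held neither combination in this window. A match describes letters, not binding, and the counts themselves were made on build mm9.

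With all 8 libraries and the filter on low counts, none of the 10 genes was called at an edgeR adjusted p under 0.05. All 10 had a negative log2 fold change (Dclk1+ over Dclk1-), and 4 had an unadjusted p under 0.05. Among all tested genes 1.02% were called lower, 52.9% had a negative fold change and 13.6% had a negative one with an unadjusted p under 0.05. The median log2 fold change was -1.55 over the 10 genes and -0.08 over all tested genes. The Dclk1+ libraries spread far wider than the Dclk1- libraries. The level in library 4 was 26.3 to 120 times that in library 2, while the highest Dclk1- library exceeded the lowest 1.43 to 3.91 times. The genes fell into 6 whose groups overlapped (Cd74, H2-Aa, H2-Ab1, H2-Eb1, H2-DMa and H2-DMb1) and 4 that were lower in every Dclk1+ than in every Dclk1- library (H2-DMb2, H2-Oa, H2-Ob and Ciita). Among all tested genes 10.9% were lower in this non-overlapping way.

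**Figure D1:**
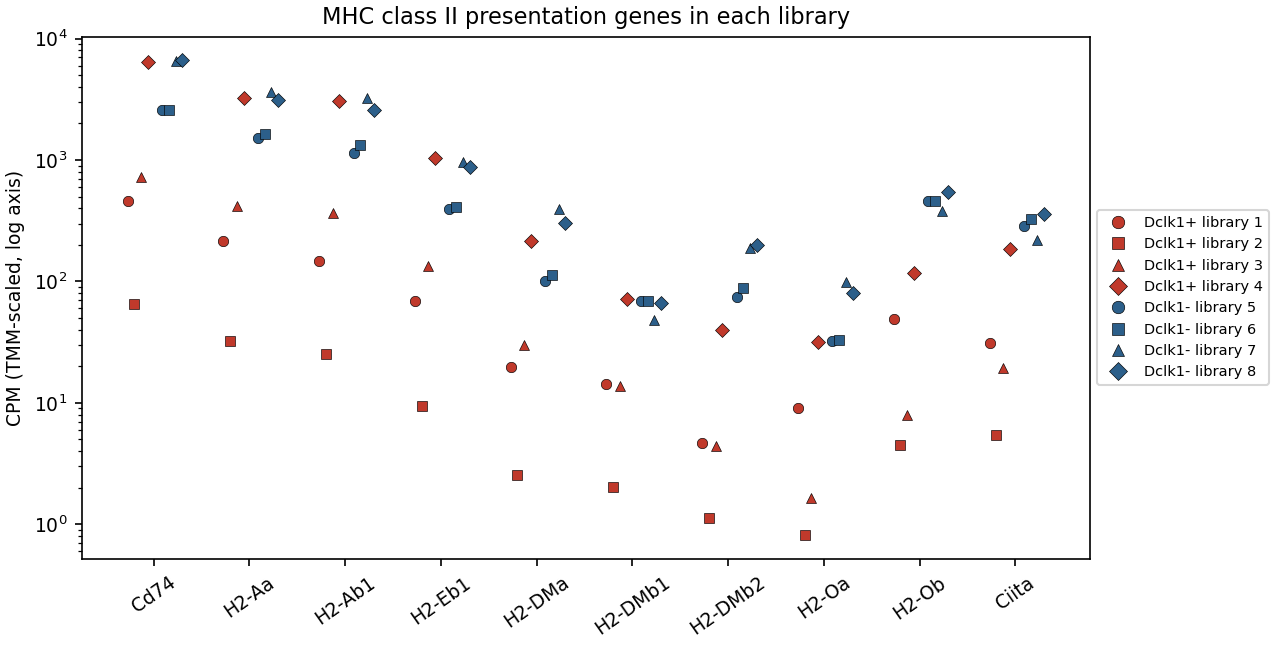
Level of each class II presentation gene in each library, in CPM on a log axis; red marks are Dclk1+ and blue marks Dclk1- libraries, 1 mark per library. Library 2 is the lowest for every gene, and library 4 reaches the Dclk1- range for the 6 genes on the left but stays below it for H2-DMb2, H2-Oa, H2-Ob and Ciita.

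Together the 10 genes took 0.105% of the counts of Dclk1+ library 1 (95% Wilson interval 0.103% to 0.107%) and 0.0142% for library 2 (0.0135% to 0.0150%). Libraries 3 and 4 gave 0.195% (0.192% to 0.199%) and 1.46% (1.45% to 1.47%). In Dclk1- libraries 5 to 8 they took 0.697%, 0.800%, 1.20% and 1.39%. Libraries 1 to 3 thus held the 3 smallest shares. Library 4 held the largest by raw counts only: with Rn45s left out its share was 1.78%, below the 1.83% and 1.88% of Dclk1- libraries 7 and 8, and its summed 14367 CPM lay below their 15649 and 14719 CPM. These intervals cover counting error only.

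Cd74, the invariant chain, had levels of 462, 65.7, 729 and 6382 CPM across Dclk1+ libraries 1 to 4. Dclk1- libraries 5 to 8 had 2566, 2572, 6505 and 6609 CPM. Libraries 1, 2 and 3 lay below every Dclk1- library, and library 4 lay between the lower and the upper Dclk1- pair. The group levels were 1910 ± 2994 and 4563 ± 2303 CPM (SD, n = 4 each), a log2 difference of -1.26 ± 1.13 (SE) with a 95% interval from -3.80 to 1.29 and an edgeR adjusted p of 0.465. Without library 4 it was -3.32 ± 0.93, with an edgeR adjusted p of 0.0390.

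H2-Aa encodes the alpha chain of the I-A molecule and H2-Ab1 its beta chain. H2-Aa was at 216, 32.1, 417 and 3223 CPM in Dclk1+ libraries 1 to 4 and at 1526, 1628, 3614 and 3096 CPM in Dclk1- libraries 5 to 8. H2-Ab1 was at 146.5, 25.4, 365 and 3056 CPM against 1147, 1334, 3235 and 2576 CPM in the same order. For both chains library 4 was above 3 of the 4 Dclk1- libraries and libraries 1 to 3 were below all of them. Their log2 fold changes were -1.34 ± 1.11 and -1.21 ± 1.16 (SE), with edgeR adjusted p of 0.421 and 0.493. The counts of the 2 chains stayed close to a constant ratio, with 1.05 to 1.48 H2-Aa counts per H2-Ab1 count over the 8 libraries.

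H2-Eb1, the beta chain of the I-E molecule, was at 68.8, 9.49, 134 and 1042 CPM across Dclk1+ libraries 1 to 4. It was at 395, 407, 968 and 884 CPM in Dclk1- libraries 5 to 8, so that library 4 had the highest level of all. The log2 fold change was -1.08 ± 1.09 (SE, edgeR adjusted p = 0.516) and without library 4 it was -3.10 ± 0.87 (edgeR adjusted p = 0.0386). The alpha chain that pairs with it is not made from the C57BL/6J allele, and the table lists that gene as the pseudogene H2-Ea-ps. H2-Ea-ps was at 0 CPM in all Dclk1+ libraries and in Dclk1- library 7, and at 0.881, 1.33 and 0.167 CPM in Dclk1- libraries 5, 6 and 8. Class II chains differ strongly between mouse strains, and how reads from a CBA allele fared on the reference used for counting was not tested. H2-Eb2, a relative of H2-Eb1 also known from B cells, was at 2.77, 1.63, 0.220 and 22.0 CPM in Dclk1+ libraries 1 to 4 and at 39.8 to 49.4 CPM in the Dclk1- libraries. It did not pass (log2 fold change -2.72 ± 1.03, edgeR adjusted p = 0.110) except without library 4 (-4.69 ± 0.72, edgeR adjusted p = 0.0109).

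H2-DMa encodes the alpha chain of the peptide exchange factor H2-DM. Its level was 19.9, 2.55, 29.97 and 215 CPM in Dclk1+ libraries 1 to 4 and 100.2, 112, 391.9 and 301 CPM in Dclk1- libraries 5 to 8. Library 4 again lay inside the Dclk1- range and the other Dclk1+ libraries below it. The log2 fold change was -1.76 ± 1.07 (SE, edgeR adjusted p = 0.282).

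The 2 H2-DM beta chain genes separated from each other. H2-DMb1 was at 14.3, 2.04, 13.8 and 71.7 CPM in Dclk1+ libraries 1 to 4 and at 68.9, 69.5, 48.5 and 65.8 CPM in Dclk1- libraries 5 to 8, with its highest level in library 4. H2-DMb2 was at 4.66, 1.12, 4.41 and 40.1 CPM in Dclk1+ libraries and at 74.5, 88.55, 188 and 200.2 CPM in Dclk1- libraries, with no overlap. Their log2 fold changes were -1.31 ± 0.81 and -3.45 ± 0.997 (SE), with edgeR adjusted p of 0.287 and 0.0642. There were 0.320 to 0.560 H2-DMb2 counts per H2-DMb1 count in the Dclk1+ libraries and 1.08, 1.27, 3.87 and 3.04 in Dclk1- libraries 5 to 8. This ratio was singled out after its values were seen, so it carries no test. The longest annotated transcripts of H2-DMb1 and H2-DMb2 are 94.8% identical over 1211 aligned bases, with a longest identical run of 221 bases, so the split of reads between these genes is uncertain. With both genes summed into 1 row the log2 fold change was -2.40 ± 0.88 (SE, edgeR adjusted p = 0.101).

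H2-Oa and H2-Ob encode the alpha and beta chains of H2-DO, the inhibitor of H2-DM that is best known from B cells. H2-Oa was at 9.10, 0.816, 1.65 and 31.8 CPM in Dclk1+ libraries 1 to 4 and at 32.0, 32.6, 99.7 and 80.8 CPM in Dclk1- libraries 5 to 8. Library 4 fell just short of the lowest Dclk1- library, so the separation of the groups was narrow, and the value of library 2 rests on 8 counts. H2-Ob was at 49.05, 4.49, 7.93 and 118 CPM in Dclk1+ libraries and at 461, 456, 381 and 546 CPM in Dclk1- libraries. Here the highest Dclk1+ library was well below the lowest Dclk1- library. The log2 fold changes were -2.50 ± 1.004 for H2-Oa and -3.36 ± 0.92 for H2-Ob (SE), with edgeR adjusted p of 0.125 and 0.0587. Without Dclk1+ library 4 they were -3.87 and -4.34, with edgeR adjusted p of 0.0256 and 0.0158.

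Ciita, the co-activator that drives the others, was at 31.2, 5.41, 19.5 and 187 CPM across Dclk1+ libraries 1 to 4. It was at 288, 324, 218 and 360.5 CPM in Dclk1- libraries 5 to 8. Library 4 came closest to the Dclk1- range without reaching it. Its log2 fold change of -2.29 ± 0.90 (SE) had a 95% interval from -4.32 to -0.27 and an edgeR adjusted p of 0.12.

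Without Dclk1+ library 4 all 10 genes were called lower by edgeR, against 6.23% of all genes tested in that fit. Their log2 fold changes then ran from -2.50 for H2-DMb1 to -5.22 for H2-DMb2. These calls are a description, because library 4 was singled out partly from the levels of the same 10 genes. Leaving out any other single library gave no edgeR call among the 10 and none among all genes, so that the calls of companion genes named below were lost too, while 3092 to 4005 genes had an unadjusted p under 0.05 in those fits. On all 8 libraries DESeq2 called 4 of the 10 lower (H2-DMb2, H2-Oa, H2-Ob and Ciita), where it called 8.62% of all genes with an adjusted p lower, and limma-voom called 3 (H2-DMb2, H2-Ob and Ciita), where it called 3.58%. The median of the 10 was -2.96 on the log2 scale with limma-voom, which averages logarithms.

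**Figure D2:**
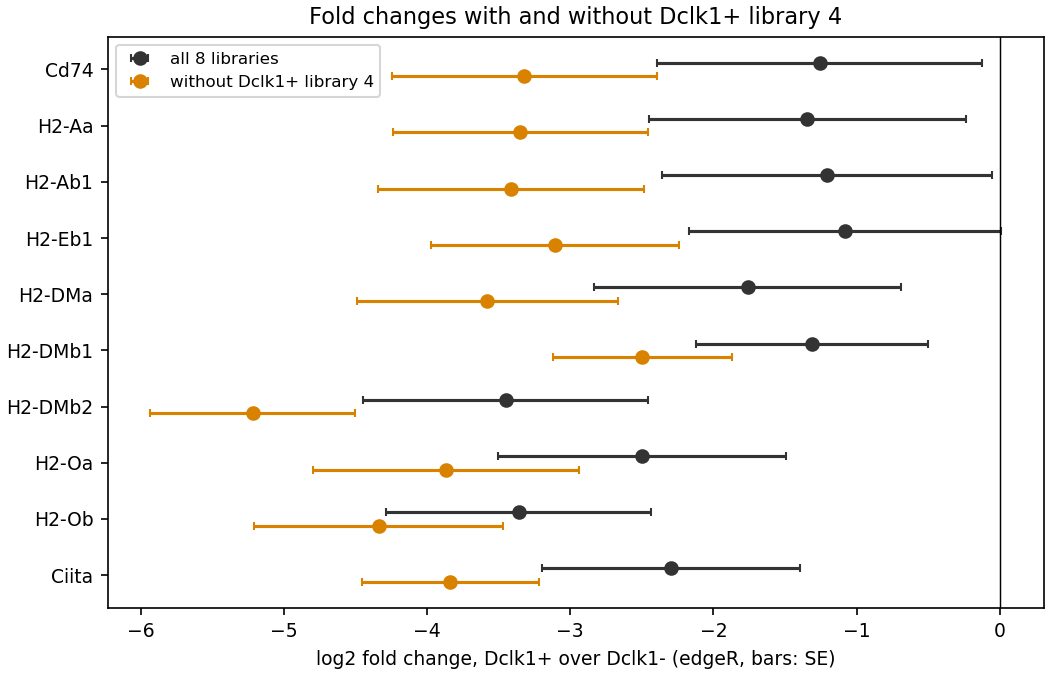
log2 fold change of each gene, Dclk1+ over Dclk1-, from edgeR with all 8 libraries (grey) and without Dclk1+ library 4 (orange); bars are standard errors. Every gene has a more negative value without library 4, from -1.26 to -3.32 for Cd74 and from -3.36 to -4.34 for H2-Ob.

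Within the Dclk1+ group the class II genes ran opposite to Dclk1. From most to least Dclk1 the order of the libraries was 2, 1, 3 and 4, and from least to most Cd74 it was the same. H2-Aa, H2-Ab1, H2-Eb1 and H2-DMa shared this order, while H2-DMb1, H2-DMb2, H2-Oa, H2-Ob and Ciita had library 1 above library 3. With 4 libraries this order is a description only. As a percentage of the Dclk1- mean, the 10 genes had medians of 10.2%, 1.31%, 14.6% and 104% in libraries 1 to 4. In library 4 they spread from 25.6% for H2-Ob to 157% for H2-Eb1.

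Setting each gene against Cd74 in the same library removes the overall level and shows how the make-up of the set varied. The chain genes and H2-DMa moved with Cd74. H2-Aa was at 46.8% to 63.3% of the Cd74 counts over the 8 libraries, H2-Eb1 at 13.4% to 18.3% and H2-DMa at 3.36% to 6.02%. H2-Ob was at 10.6% and 6.83% of the Cd74 counts in Dclk1+ libraries 1 and 2, at 1.09% and 1.85% in libraries 3 and 4, and at 5.86% to 18.0% in the Dclk1- libraries. Ciita was at 6.75%, 8.23%, 2.68% and 2.92% in Dclk1+ libraries 1 to 4 and at 3.36% to 12.6% in the Dclk1- libraries. H2-Oa was at 1.97%, 1.24%, 0.227% and 0.498%, and at 1.22% to 1.53% in the Dclk1- libraries. Libraries 3 and 4 thus had less H2-Oa, H2-Ob and Ciita per Cd74 than every other library, and libraries 1 and 2 lay within or above the Dclk1- range for H2-Oa and H2-Ob. H2-DMb2 alone of the 9 was lower relative to Cd74 in every Dclk1+ library, at 0.605% to 1.71% against 2.89% to 3.44%. This rests on the split of reads between H2-DMb2 and its close copy H2-DMb1, which is uncertain. H2-DMb1 was at 3.10%, 3.11%, 1.89% and 1.12% in Dclk1+ libraries 1 to 4 and at 0.745% to 2.70% in the Dclk1- libraries.

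**Figure D3:**
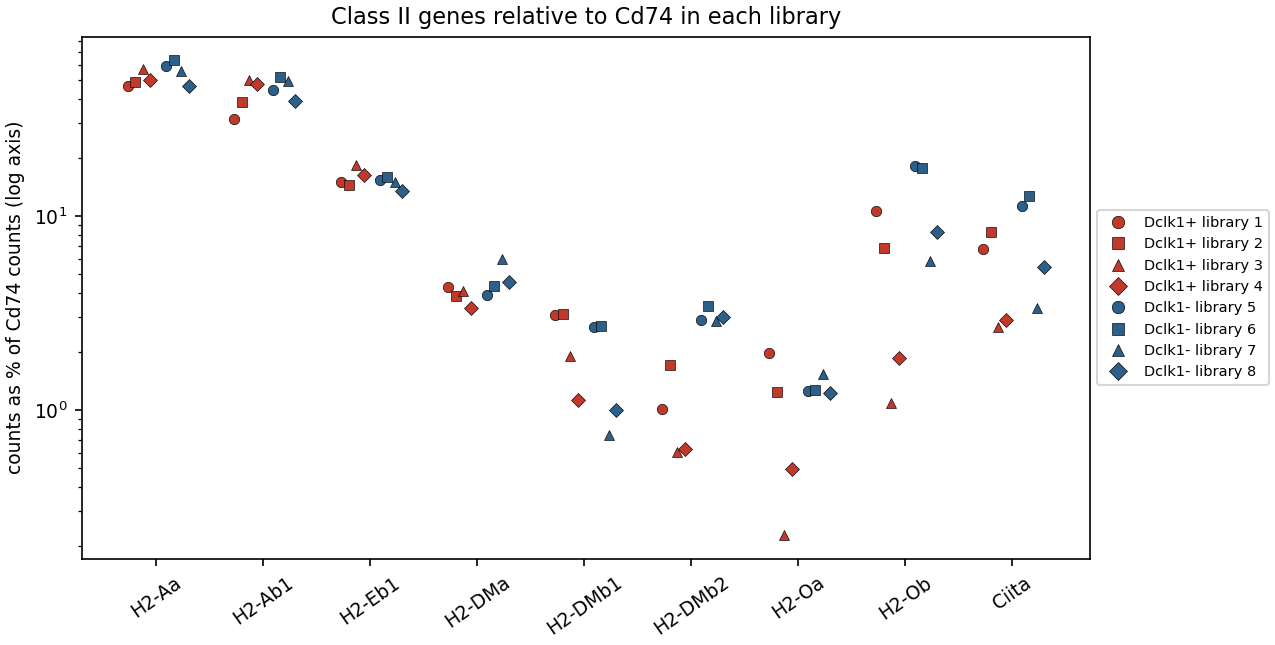
Counts of each class II gene as a percentage of the Cd74 counts of the same library, on a log axis; red marks are Dclk1+ and blue marks Dclk1- libraries. H2-Aa, H2-Ab1, H2-Eb1 and H2-DMa lie in narrow bands, while Dclk1+ libraries 3 and 4 are the lowest for H2-Oa, H2-Ob and Ciita (H2-Ob at 1.09% and 1.85%).

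Levels were also divided by the length of the annotated exons, to compare genes with each other. Per kilobase, Cd74 was the most abundant of the 10 in all 8 libraries, with a mean of 1349 CPM per kilobase in Dclk1+ and 3222 in Dclk1- libraries, followed by H2-Aa (862 and 2186) and H2-Ab1 (741 and 1710). H2-Eb1 followed at 188 and 397 CPM per kilobase. The H2-DM, H2-DO and Ciita genes had group means between 7.20 and 131 CPM per kilobase. H2-Ob had the highest mean of these 6 in the Dclk1- libraries. In the Dclk1+ group H2-DMa had the highest mean, and without library 4 H2-DMb1 did, at 7.15 CPM per kilobase against 6.55 for H2-DMa. These close values depend on the annotated lengths, 1404 bases for H2-DMb1 and 2668 for H2-DMa. They also depend on the uncertain split of reads between H2-DMb1 and H2-DMb2, so their order is not firm.

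Markers of cell types that use class II differed between the libraries too, in patterns of their own, and their part in the results was not tested. The B cell list held 14 genes, of which 3 were called lower (Pax5, Fcer2a and Cd22), 0 higher and 13 were lower with no overlap between groups, with a median log2 fold change of -3.40. Of all tested genes 1.02% were called lower and 10.9% were lower with no overlap. Without Dclk1+ library 4, 12 of the 14 were called lower and the median was -4.50, against 6.23% of all genes called lower in that fit. Cr2 (log2 fold change -2.56 ± 0.86, edgeR adjusted p = 0.0686) and Ebf1 were not called in that fit. Ebf1, a B lineage factor that fat and stromal cells also use, was also the gene whose groups overlapped. It reached 303 CPM in Dclk1+ library 2 while the other libraries had 43.9 to 160 CPM. Without Ebf1, which was left out after its values were seen, the summed B cell level was 410, 66.6, 63.2 and 882 CPM in Dclk1+ libraries 1 to 4 and 3685 to 4796 CPM in the Dclk1- libraries. Across the Dclk1+ libraries the B cell markers did not follow Cd74: library 3 had the lowest sum with more Cd74 than libraries 1 and 2. H2-DMb1, H2-DMb2, H2-Oa, H2-Ob and Ciita were closer to the B cell sum, with library 4 highest and library 1 above library 3. They were lowest in library 2, where the B cell sum was nearly the same as in library 3 (66.6 and 63.2 CPM). Dclk1+ library 4 had Cd74 in the Dclk1- range with a B cell sum below that range. Within the Dclk1- group, the order of the libraries by B cell sum was the same as by Cd74. No B cell marker was at 0 throughout a group. Faim3, a receptor for IgM, differed by -4.15 ± 0.98 on the log2 scale (SE), at an edgeR adjusted p of 0.0502.

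Macrophage markers ran differently. None of the 13 genes was called, all had a positive fold change with a median of 1.85 on the log2 scale, and all 13 were highest in Dclk1+ library 4. The direction rests on that library. Without it 8 of the 13 had a negative fold change, the median was -0.30 and again none was called, and the log2 fold change of Csf1r went from 1.64 ± 1.19 to -0.65 ± 0.80 (SE). Their summed level was 360, 74.2, 1192 and 8565 CPM in Dclk1+ libraries 1 to 4 and 505 to 1314 CPM in the Dclk1- libraries. Lyz2, which encodes lysozyme, was at 116, 27.4, 587 and 3789 CPM in Dclk1+ libraries 1 to 4. Csf1r, the receptor for the macrophage growth factor, was at 14.9, 8.06, 110.2 and 832 CPM there and at 55.4 to 115 CPM in the Dclk1- libraries. The mannose receptor gene Mrc1 reached 1010 CPM in library 4 of the Dclk1+ group, and no other library exceeded 174 CPM. The order of the Dclk1+ libraries by macrophage markers was the same as by Cd74. In the Dclk1- group it was not, since library 8 had the lowest sum and the most Cd74.

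The ratio of summed B cell markers (without Ebf1) to summed macrophage markers was 1.14, 0.898, 0.0531 and 0.103 in Dclk1+ libraries 1 to 4 and 3.0 to 9.5 in the Dclk1- libraries. Libraries 3 and 4, with the lowest ratios, were those with the least H2-Ob, H2-Oa and Ciita per Cd74. Within the Dclk1- group this did not hold for H2-Ob, Ciita or H2-Oa. Dclk1- libraries 7 and 8 had the highest ratios (5.75 and 9.5), with H2-Ob at 5.86% and 8.27% of Cd74 and Ciita at 3.36% and 5.46%. In Dclk1- libraries 5 and 6 (ratios 4.54 and 3.0) H2-Ob was at 18.0% and 17.7% and Ciita at 11.2% and 12.6%. H2-Oa was at 1.25%, 1.27%, 1.53% and 1.22% of Cd74 in Dclk1- libraries 5 to 8, lowest in library 8, which had the highest ratio. A link between the ratio and these genes was not tested.

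Of 11 tested dendritic cell markers none was called, 8 had a positive fold change and the median was 0.89 on the log2 scale. This direction turned without Dclk1+ library 4, where 8 had a negative fold change, the median was -1.56 and Irf8 and Ccr7 were called lower. In Dclk1+ library 4, 10 of the 12 listed genes were highest, and the summed level was 221, 45.6, 166 and 1215 CPM in Dclk1+ libraries 1 to 4 against 353 to 839 CPM in the Dclk1- libraries. Irf8, a factor of dendritic cells and B cells, had 266 CPM in Dclk1+ library 4, within the 124 to 292 CPM of the Dclk1- group, and Dclk1+ libraries 1 to 3 had 5.41 to 59.6 CPM. Ccr7, a chemokine receptor of lymphocytes and mature dendritic cells, differed by -2.46 ± 1.08 on the log2 scale (SE, edgeR adjusted p = 0.150), and Fscn1, a bundler of actin, by 1.31 ± 0.55 (edgeR adjusted p = 0.136) or, without library 4, by 0.63 ± 0.38. T cells of the mouse make little class II, and their 11 markers had 2 genes called lower (Zap70 and Cd247), 0 higher and a median of -3.59, where 1.02% of all genes were called lower. Without library 4 all 11 were called lower, with a median of -4.48, where 6.23% of all genes were called lower. The summed T cell level was 21.1 to 684 CPM in the Dclk1+ and 1040 to 4093 CPM in the Dclk1- libraries. The 6 pan-leukocyte genes were not called with all libraries (median -2.72) and were all called lower without library 4 (median -4.07), with summed levels of 501, 69.5, 409.5 and 3030 CPM in Dclk1+ libraries 1 to 4 and 4162 to 7511 CPM in the Dclk1- libraries.

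Non-leukocyte markers did not follow the class II genes. Duct and epithelial markers were highest in Dclk1+ library 3, at a summed 5211 CPM, and were at 1099, 170.4 and 918.5 CPM in libraries 1, 2 and 4 and at 41.6 to 120 CPM in the Dclk1- libraries (4 of 9 tested genes called higher, 0 lower, median 4.05, against 2.47% of all genes called higher). Without library 4, 8 of the 9 were called higher, against 12.1% of all genes. Fibroblast markers were highest in library 2, the library with the least class II, with 39681 CPM, where the remaining Dclk1+ libraries had 6174 to 16754 CPM and the Dclk1- group 1161 to 8369 CPM. None of the 8 was called (median 2.38; 4 called higher without library 4), and Fbn1, Dcn and Col3a1 had log2 fold changes of 2.87 ± 0.91, 2.53 ± 0.89 and 1.84 ± 0.86 (SE). Endothelial markers were highest in library 1, at 3099 CPM, and none of the 6 was called (median 1.74), with Tek, an endothelial receptor kinase, called higher without library 4.

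**Figure D4:**
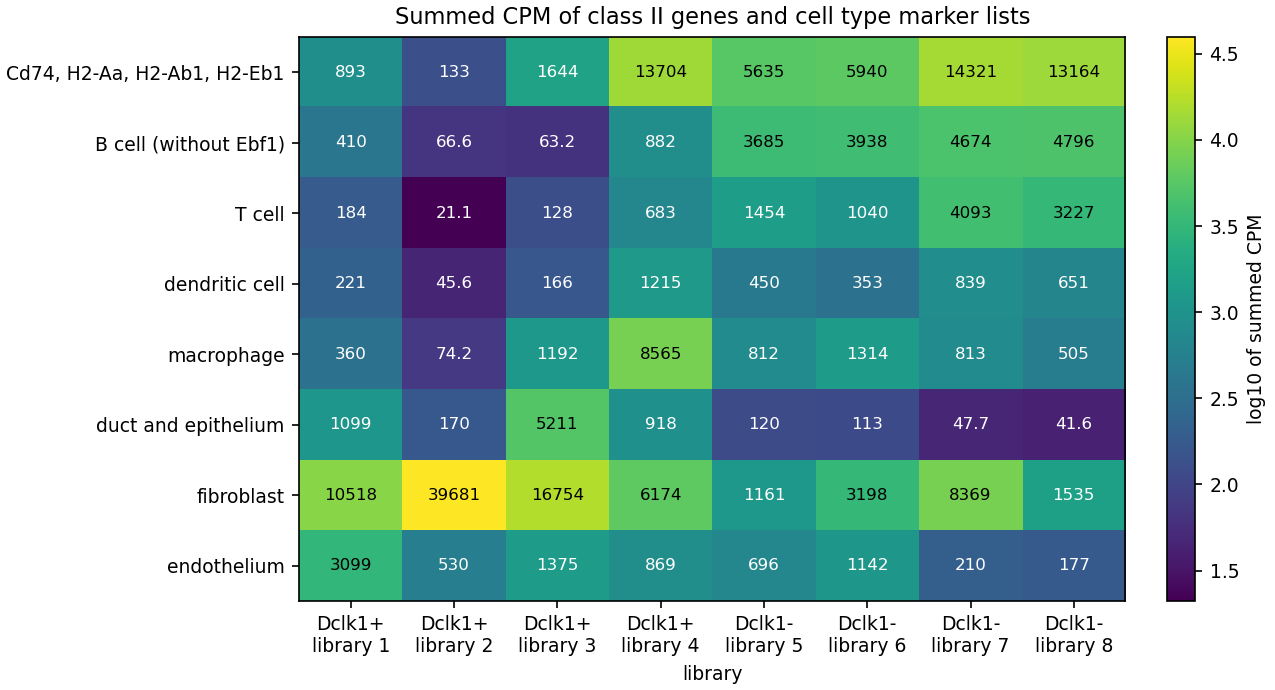
Summed CPM of Cd74, H2-Aa, H2-Ab1 and H2-Eb1 (top row) and of 7 marker lists in each library; colour is the log10 of the sum and each cell prints the sum. Dclk1+ library 4 has 13704 CPM of the class II genes with 8565 CPM of macrophage and 882 CPM of B cell markers, while the Dclk1- libraries have 5635 to 14322 CPM with 3685 to 4796 CPM of B cell markers.

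Genes whose levels followed the class II genes most closely were looked for among the tested genes with a mean of at least 10 CPM. The 10 members and predicted or unnamed gene models were left out of this search. The measure was Pearson's r of log2 CPM with the mean of Cd74, H2-Aa, H2-Ab1 and H2-Eb1 over the 8 libraries. It is given without a p, because the libraries share their group and their mixture of cells. The 10 closest genes were Nfatc2, Itgb2, Epsti1, Ctss, Tapbpl, Laptm5, Ucp2, Csrnp1, Rps6ka1 and Tlr9, with r from 0.997 down to 0.986. After subtracting each group's mean they were Itgb2, Nfatc2, Sdc3, Sema4a, Fcer1g, Was, Laptm5, Ms4a6b, Epsti1 and Fgr, with r from 0.998 down to 0.989. Itgb2, the shared beta chain of the leukocyte integrins, was at 21.1, 3.98, 50.9 and 345.5 CPM in Dclk1+ libraries 1 to 4 and at 215 to 457 CPM in the Dclk1- libraries. Of the other 6 members, H2-DMa had r = 0.994, H2-DMb1 0.955, Ciita 0.927, H2-DMb2 0.925, H2-Oa 0.901 and H2-Ob 0.843 over all 8 libraries.

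Endosomal processing genes were split. Of 9 tested, Ctsl was called higher and none lower, where 2.47% of all genes were called higher, and the median log2 fold change was 0.40. Without Dclk1+ library 4 the median was -0.04, Ctsl was called higher, and Ctss and Ifi30, a thiol reductase of endosomes, were called lower. In that fit 12.1% of all genes were called higher and 6.23% lower. Ctsl, the cathepsin that digests Cd74 in thymic epithelium, was at 601, 860, 415 and 264 CPM in Dclk1+ libraries 1 to 4 and at 91.1, 108, 195 and 52.8 CPM in Dclk1- libraries 5 to 8. Every Dclk1+ library was above every Dclk1- library, and the log2 fold change came to 2.26 ± 0.51 (SE), at an edgeR adjusted p of 0.0492, and library 4 was the lowest of the Dclk1+ libraries. Ctss, the cathepsin that does so in B cells, macrophages and dendritic cells, was at 39.5, 9.29, 89.5 and 465 CPM in Dclk1+ libraries and at 243 to 377 CPM in Dclk1- libraries (log2 fold change -0.98 ± 0.92, edgeR adjusted p = 0.488, and -2.55 ± 0.70 without library 4, adjusted p = 0.0366). The lysosomal proteases Ctsb and Ctsd had log2 fold changes of 1.32 ± 0.59 and 0.40 ± 0.51 (SE), with edgeR adjusted p of 0.154 and 0.614, and of 0.65 ± 0.45 and 0.25 ± 0.56 without library 4. Of the 9 genes, 8 were highest in Dclk1+ library 4.

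The factors that bind the X and Y boxes varied less than the genes they serve. None of 7 was called, all 7 had a negative fold change and the median was -0.59 on the log2 scale. Rfx5, the RFX subunit that contacts the X box, was at 33.7, 28.2, 33.7 and 46.4 CPM in Dclk1+ libraries 1 to 4 and at 91.5, 75.1, 63.9 and 98.4 CPM in Dclk1- libraries 5 to 8. Its groups did not overlap, and its log2 fold change was -1.21 ± 0.29 (SE, edgeR adjusted p = 0.0503). Without library 4 it was -1.23 ± 0.30 and Rfx5 was called lower (edgeR adjusted p = 0.0269). Nfya, a subunit of NF-Y, and Creb1, which can bind beside the X box, had log2 fold changes of -0.59 ± 0.33 and -0.61 ± 0.40, with edgeR adjusted p of 0.239 and 0.313.

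In the interferon gamma axis none of 7 tested genes was called, 6 had a negative fold change and the median was -0.59 on the log2 scale. Jak1, a kinase of the receptor, and Ifngr1, its ligand-binding chain, had log2 fold changes of -0.47 ± 0.41 and 0.40 ± 0.31. Ifng itself was too low to be tested, with at most 0.333 CPM in a Dclk1+ and 0.735 to 2.67 CPM in the Dclk1- libraries.

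Among genes for the surface turnover of class II and the partners of Cd74, none of 5 was called and the median was -1.73 on the log2 scale. Without Dclk1+ library 4 Cd83 and Cxcr4 were called lower, where 6.23% of all genes were, and the median was -1.93. Cd83, which stabilises class II on the surface, was at 13.9, 2.24, 11.5 and 98.8 CPM in Dclk1+ libraries 1 to 4 and at 114 to 195 CPM in the Dclk1- libraries (log2 fold change -2.26 ± 0.93, edgeR adjusted p = 0.132). Cxcr4, a chemokine receptor that partners Cd74, differed by -2.75 ± 0.95 on the log2 scale (SE, edgeR adjusted p = 0.0913) with no overlap, while Cd44, the signalling partner of Cd74, had one of 0.05 ± 0.44, or -0.44 ± 0.31 without library 4. Of 6 tested co-stimulatory genes none was called (median -0.79), and without library 4 Icosl was called lower (median -1.80). Icosl, the ligand of ICOS, was at 14.0 to 96.1 CPM in the Dclk1+ and 120.2 to 173 CPM in the Dclk1- libraries (edgeR adjusted p = 0.0738). Cd86 had a log2 fold change of 0.06 ± 1.05, or -1.42 ± 0.93 without library 4, and Cd274, which encodes PD-L1, one of -0.23 ± 0.56.

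MHC class I genes, which nearly all cells use, had a median log2 fold change of -0.93, and none of 17 tested was called, with 15 negative. Without library 4 the median was -1.14. Tap1 of the peptide transporter and Psmb8 of the immunoproteasome were called lower in that fit, as were 6.23% of all genes. B2m, the light chain of class I, was at 3187, 1635, 1673 and 3672 CPM in Dclk1+ libraries 1 to 4 and at 3054, 2714, 7348 and 5951 CPM in Dclk1- libraries 5 to 8. H2-K1 and H2-D1, the classical heavy chains, had log2 fold changes of -1.37 ± 0.57 and -0.84 ± 0.52 (SE), with edgeR adjusted p of 0.136 and 0.288. Across the Dclk1+ libraries B2m stayed within 1635 to 3672 CPM, where Cd74 went from 65.7 to 6382 CPM.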

How the data were processed

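The authors deposited 1 table of unnormalised counts, with a row per gene symbol and a column per library that the sample titles identify. Per the labels' protocols, RNA with an integrity number above 8.0 was amplified with the Ovation V2 system before TruSeq library preparation. The submitters' processing notes name build mm9, HTSeq 0.6.1 and bcl2fastq 1.8.4 throughout. Aligners differ in these notes: 7 libraries list TopHat with Bowtie 0.12.7, whereas Dclk1- library 5 lists TopHat2 2.0.4 with Bowtie2 2.0.0. Which annotation and strand setting were used is not stated there.

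All genes were fitted with edgeR 4.0.16 (R 4.3.3): filterByExpr (minimum count 10, total 15), TMM scaling, a quasi-likelihood F test of group without covariates (residual degrees of freedom 6) and Benjamini-Hochberg adjustment over 13274 genes, with a threshold of 0.05. Standard errors come from the F statistic. DESeq2 1.42.0 and limma-voom 3.58.1 were alternatives, as were RLE scaling, other filters on low counts, Rn45s left out, H2-DMb1 and H2-DMb2 summed, and each library left out. The code was tested on simulated data. Log2 CPM for likeness used a prior count of 2. Pairs of libraries within groups differed by a chi-square of at least 19.8 per degree of freedom, so none was counted as a repeat. Exon lengths and transcripts are from GENCODE M21 and were aligned with Biopython 1.88. The members, the lists and the tests were chosen with earlier results of these data known. Named companion genes are those called in each list and the 3 of highest mean level. Some genes that this rule names are not reported here. Others (Ebf1, H2-Ea-ps and Ifng among them) were chosen after their values were seen.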

Additional observations from a re-analysis of the deposited data

Results flagged for a closer look

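In groups of 4 libraries, a library was set apart when its gap to the nearest other library, as a share of the group's whole range, exceeded Dixon's 95% critical value. Of 54 groups examined, for the 10 genes, their share of counts and the summed marker and pathway lists, 14 met this. The critical value is meant for normally distributed data, and it was applied to CPM and shares that were not on a log scale. On such a scale a single high library weighs heavily, and how often these data would meet the rule by chance was not worked out. In all 14 the library was Dclk1+ library 4, on the high side. Its values were 6382 CPM for Cd74, 3223 CPM for H2-Aa, 3056 CPM for H2-Ab1, 1042 CPM for H2-Eb1, 215 CPM for H2-DMa, 40.1 CPM for H2-DMb2, 187 CPM for Ciita and 1.46% of counts for the 10 genes together. H2-DMb1, H2-Oa and H2-Ob did not meet it. Among summed lists its values were 22.0 CPM for H2-Eb2 with H2-Ea-ps, 5107 CPM for endosomal processing, 633 CPM for surface turnover and Cd74 partners, 3030 CPM for pan-leukocyte, 1215 CPM for dendritic cell and 8565 CPM for macrophage genes. These results share 1 library and are not independent of each other.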

How the results depend on the processing

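All 10 genes kept a negative log2 fold change under all 15 alternatives (9 rows in place of 10 with H2-DMb1 and H2-DMb2 summed). The number called lower was 0 in edgeR with all 8 libraries and the filter described above, 4 with DESeq2 and 3 with limma-voom. With no filter on low counts edgeR called 2, H2-DMb2 and H2-Ob (edgeR adjusted p 0.0486 and 0.0460). The number called lower ran from 0 to 10 when single libraries were left out. It reached 10 only without Dclk1+ library 4. Over all genes, 135 were called lower and 328 higher. DESeq2 called 1132 and 2290, limma-voom 475 lower, no filter 264 and 793, the stricter filter (at least 1 CPM in at least 4 libraries) 88 and 218, RLE scaling 665 higher and Rn45s left out 543 higher. Leaving out single libraries gave 0 to 841 lower and 0 to 1640 higher. The range of log2 fold changes was -3.32 to -0.86 for Cd74 and -4.44 to -2.90 for H2-Ob. The causes of these differences were not tested. The mean share of counts was recomputed only with Rn45s or single libraries left out. For the Dclk1+ group it was 0.443% ± 0.680 (SD, n = 4), 0.537% without Rn45s, 0.526% to 0.586% without library 1, 2 or 3 and 0.105% without library 4, and an SD above the mean makes it no measure of stability. For the Dclk1- group it was 1.02% ± 0.327, 1.34% without Rn45s and 0.900% to 1.13% with single libraries left out. Values of the companion lists without Dclk1+ library 4 were added after the data were seen. No paired analysis was possible because the labels do not state which libraries, if any, came from the same animals. The smallest levels, in Dclk1+ library 2, rest on 8 counts of H2-Oa and 11 of H2-DMb2.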
